A study of Drosophila melanogaster with 2 samples.

Results

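The genes described here are 9 genes of sex determination and courtship: Sxl, tra, tra2, dsx, ix, her, fru, retn and dati. They were taken by name because dati itself acts in the courtship behaviour of females, and each was examined over its gene span and 5000 bp on either side. They are 9 of 13945 protein-coding genes on 6 chromosome arms, and their windows cover 336.6 kb of build dm6. Where Dati fused to enhanced green fluorescent protein (eGFP) sits had been mapped by chromatin immunoprecipitation and sequencing (ChIP-seq) with an antibody against GFP. The material was whole Drosophila melanogaster embryos aged 8 to 24 hours of the strain dati-GFP, in 1 group of 2 biological replicates, with nothing to set against it. This age was read from the source name; a separate age label conflicts with it and is too high for any embryo. Whole embryos mix all cell types, and with their sex not collected, signal from male and female embryos cannot be told apart. The sources used here do not name the sequences that drive the fusion gene, and none of the values below is a measure of expression. Read depth is unknown, since the lists hold places and their values but no read counts.

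Sex in Drosophila is set by a cascade of splicing factors. In females the RNA-binding protein Sxl directs splicing of its own transcripts and those of tra; Tra then acts with Tra2 on the transcripts of dsx and fru. Dsx is a transcription factor with male and female forms that shapes most visible sexual traits, with ix and her as partners in the female. Fru, a zinc finger transcription factor with male-specific forms, directs male courtship, while retn, which encodes an ARID-domain protein, restrains male-like courtship in females. The zinc finger protein Dati is needed in neurons for females to accept courting males.

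The places on which the results turn are printed as the plus strand of the Release 6 assembly (dm6), 5′ to 3′. The 2 strongest Sxl places and the fru place are shown because they are in the authors' pooled thresholded set, the dati place because it is the strongest beside the gene whose protein was precipitated, and the her place because it passed in replicate 2 alone. Capitals mark ACAGTG and AATACT on either strand (CACTGT and AGTATT on the other), a pair of 6-mers picked because they were frequent at the summits of this same set.
Sxl, strongest place, chrX:7095645-7095908: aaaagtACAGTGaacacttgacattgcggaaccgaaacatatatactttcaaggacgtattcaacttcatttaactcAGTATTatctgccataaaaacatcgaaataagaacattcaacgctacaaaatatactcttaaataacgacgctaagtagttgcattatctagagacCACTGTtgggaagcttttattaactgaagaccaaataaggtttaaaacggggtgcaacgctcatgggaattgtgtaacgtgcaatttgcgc
Sxl, second place, chrX:7096508-7096771: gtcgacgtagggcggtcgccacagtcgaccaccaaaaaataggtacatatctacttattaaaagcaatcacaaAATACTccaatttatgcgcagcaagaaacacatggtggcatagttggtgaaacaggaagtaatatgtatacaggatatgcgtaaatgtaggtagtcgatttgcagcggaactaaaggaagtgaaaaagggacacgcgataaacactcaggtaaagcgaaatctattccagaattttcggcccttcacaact
fru, thresholded place, chr3R:18436654-18436917: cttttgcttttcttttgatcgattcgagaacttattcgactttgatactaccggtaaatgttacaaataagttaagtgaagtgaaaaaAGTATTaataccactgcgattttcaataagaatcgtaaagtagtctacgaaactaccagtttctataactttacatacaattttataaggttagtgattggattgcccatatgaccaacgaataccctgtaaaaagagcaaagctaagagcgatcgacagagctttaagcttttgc
dati, best place, chr4:397381-397644: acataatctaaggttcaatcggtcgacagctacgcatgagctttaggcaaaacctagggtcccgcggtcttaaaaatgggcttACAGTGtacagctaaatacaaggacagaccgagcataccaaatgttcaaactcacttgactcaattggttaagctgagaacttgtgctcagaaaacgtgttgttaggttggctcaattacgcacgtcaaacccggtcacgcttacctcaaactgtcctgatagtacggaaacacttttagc
her, place of the set of replicate 2, chr2L:16684504-16684747: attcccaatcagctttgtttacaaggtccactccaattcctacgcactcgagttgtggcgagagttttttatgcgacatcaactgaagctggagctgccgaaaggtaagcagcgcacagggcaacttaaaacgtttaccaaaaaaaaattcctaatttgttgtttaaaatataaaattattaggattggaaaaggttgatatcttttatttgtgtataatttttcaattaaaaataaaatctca

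The strongest Sxl place held ACAGTG at base 7 and again, as CACTGT, at base 174, counted from its first base, with AGTATT at base 78. The second Sxl place had AATACT at base 74, the fru place AGTATT at base 89 and the dati place ACAGTG at base 84. The her place had neither 6-mer. Over windows of 264 bp at all 1892 thresholded summits of the 6 arms, ACAGTG or its complement was present in 27.0%, against 10.9% of windows 1000 bp to each side, and AATACT in 18.0%, against 13.1%. The thresholded places are part of those 1892, so the letters describe them and test nothing. Of the motifs TATCGATA (the DNA replication-related element), GAGAG and GGTCACAC, on both strands, the Sxl, fru and dati places held none, and the her place held GAGAG at base 60. The thresholded ix place, not printed here, held GAGAG at bases 57 and 103 and ACAGTG at base 20. Among all thresholded summits TATCGATA was present in 3.01%, GAGAG in 35.5% and GGTCACAC in 2.48%, against 0.634%, 28.0% and 0.872% of the flanking windows. The E-box letters CANNTG, which are common, were present in 73.3% of summit windows, against 74.6% of flanks.

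Dati-eGFP places past the authors' threshold were found at 3 of the 9 genes: Sxl, ix and fru. The threshold is on the irreproducible discovery rate (IDR), which is low where the rank of a place repeats, and the largest IDR in the set was 0.0100. A share of 33.3% of the 9 genes (exact Clopper-Pearson 95% interval 7.49 to 70.1, counting error only) stands beside 25.4% of all protein-coding genes with a place in a window made the same way. Long windows hold more places: 1 of 4 of these genes with windows under 20 kb had one, against 22.9% of all such genes, 1 of 3 at 20 to 50 kb, against 37.7%, and 1 of 2 over 50 kb, against 49.9%. Within 1000 bp of one of a gene's own start sites, 1 of the 9 (Sxl, 11.1%, interval 0.281 to 48.2) had a thresholded summit, against 9.52% of all genes. The 9 windows held 5 thresholded places, or 14.9 per Mb, against 14.1 per Mb over the arms. All of these shares lie near the level of the genome and are no result about the genes as a set. The count also rests on the pooling. The set of replicate 1 alone had a place at 1 of the 9 genes (Sxl), and that of replicate 2 alone at 2 (Sxl and her). The conservative set, thresholded on the list that pairs the replicates, had one at 1 (Sxl). Over all genes the share fell as well, from 25.4% to 18.1%, 14% and 23% in these 3 sets.

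The best place of each gene is the one with the highest value of the authors' signal, a number from their peak caller of unstated scale. Ordered by that value in the pooled list, the genes were Sxl (118.1), fru (60.8), dati (52.4), ix (52.2), tra2 (50.7), dsx (49.9), retn (46.1), tra (40.0) and her (32.1). Their median, 50.7, compares with 42.4 over all genes, but the 2 medians are not matched for window length. Over all genes the median was 41.3 for windows under 20 kb, 48.3 at 20 to 50 kb and 56.8 over 50 kb. From dati to dsx the pooled values ran only from 52.4 to 49.9. At those places dati had the lowest value in replicate 1 (17.5, against 23.2 to 29.0) and the highest in replicate 2 (36.8, against 22.6 to 28.9). The order of these neighbours therefore did not repeat between the replicates. Sxl stood above the rest in the pooled list and in each replicate.

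**Figure D1:**
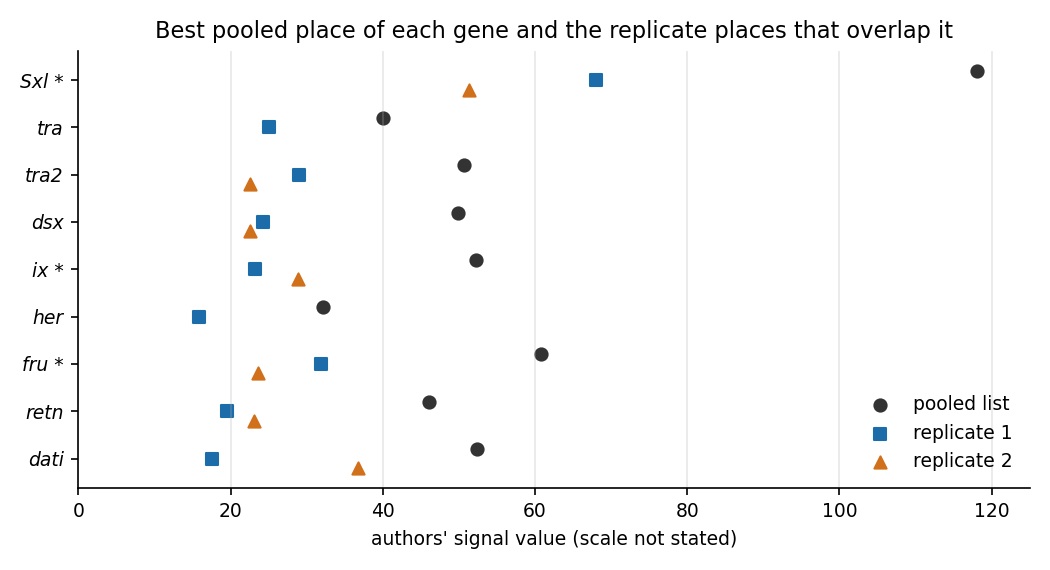
The authors' signal value (horizontal axis, scale not stated) at the best pooled place of each gene, in the pooled list (circles) and at the overlapping place of replicate 1 (squares) and replicate 2 (triangles); an asterisk marks a gene with a place in the pooled thresholded set. Sxl stands apart at 118.1, and tra and her have no triangle because replicate 2 had no overlapping place.

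Sxl (FBgn0264270, X, 7074550 to 7098053, minus strand), the switch gene of the cascade, carried the strongest Dati-eGFP place of the 9 genes. It lay at 7095645 to 7095908 with a signal of 118.1 in the pooled list, 68.0 in replicate 1 and 51.3 in replicate 2. The ranks were 474 of 156658 places, 421 of 107484 and 561 of 122195, with an IDR of 0.000399, 0.000169 and 0.00117. Both replicates therefore placed it near the top of their lists, and it was the one place of these genes that was also in the conservative set and in the thresholded set of each replicate alone. The summit, at 7095777, was 1289 bp downstream of the start site at 7097066 (transcripts Sxl-RA and Sxl-RE) and in an intron of all 21 transcripts that span it. It was in the first intron of 17 of those transcripts and in the second of Sxl-RA, Sxl-RE, Sxl-RG and Sxl-RQ. Of genes with windows of 20 to 50 kb, 86.8% had a lower best value, and of all genes 91.6%.

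A second thresholded place at Sxl, at 7096508 to 7096771, was a promoter place, with its summit 426 bp downstream of the same start site at 7097066. Its signal was 58.7 in the pooled list, 24.3 in replicate 1 and 25.6 in replicate 2, and its pooled IDR was 0.00822. It was not in the set of either replicate alone, where its IDR was 0.0724 and 0.136. The third, at 7096724 to 7096987, overlapped the second and had a signal of 3.2; its summit was in an exon of Sxl-RA, and the replicate places under it were the same as for the second. A count of 3 places at Sxl thus rests on 2 separate ones. Upstream of Sxl, a place at 7101682 to 7101931 was in the set of replicate 1 alone, with a signal of 38.6 there and 17.9 in replicate 2. Its nearest start site, 493 bp away, was that of CG4615, the gene next to Sxl.

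Sxl has 4 annotated start sites, and the places were unequally spread over them. A value at a start site is, here and below, the strongest within 500 bp in each list, which need not be the same place in all lists. Textbook accounts give the gene an early promoter and a later maintenance promoter; the annotation used here does not say which site is which. The site shared by 18 transcripts, at 7098053, had a pooled place of 24.2 centred 42 bp upstream, with 12.9 in replicate 1 and 14.0 in replicate 2. The site at 7092883 (4 transcripts) had a pooled place of 16.4 and none in either replicate within 500 bp. The rest of the gene was empty in the pooled list: from 7066746 to 7090581, 23.8 kb that include the 3′ part of Sxl, it had no summit. The matching stretch was 24.2 kb in replicate 2 and 11.6 kb in replicate 1. Within the pooled stretch, replicate 1 had places that included those of 22.0 and 14.4, with summits at 7086781 and 7085675. It also had a summit there at 7074067. Of 154038 gaps between neighbouring pooled summits on the arms, 154 (0.1%) were as long, and the median gap was 612 bp. Sxl had 18 pooled places, or 5.37 per 10 kb, a density lower than that of all but 5.72% of genes.

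**Figure D2:**
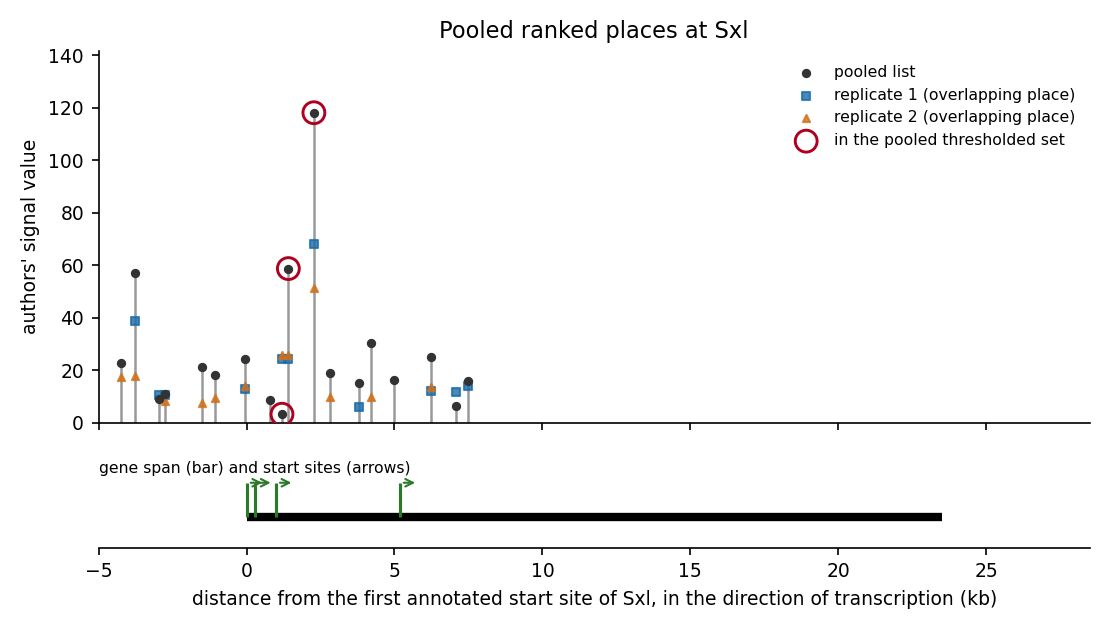
Signal value of each pooled place at Sxl (circles on stems) and of the overlapping replicate places (squares and triangles) against the distance in kb from the first start site, with the gene span and its 4 start sites drawn below; rings mark the pooled thresholded set. The ringed places, with signals of 118.1, 58.7 and 3.2, lie close to the start site at 0.987 kb, and no pooled place lies in the 3′ part of the gene.

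tra and tra2, the splicing factors downstream of Sxl, had no thresholded place, and their best places lay at the promoters of neighbours. In the tra window (FBgn0003741, 3L, 16590059 to 16591050, minus strand) the best place had a signal of 40.0 in the pooled list and 25.1 in replicate 1, with no overlapping place in replicate 2. Its summit was 87 bp downstream of the start site of Apl and 4457 bp upstream of that of tra. The next, in a coding exon of tra, had 36.2 in the pooled list, 18.5 in replicate 1 and 22.7 in replicate 2, at an IDR of 0.102. The tra start site itself had 15.0 in the pooled list, 12.7 in replicate 1 and no place in replicate 2.

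In the tra2 window (FBgn0003742, 2R, 14602004 to 14604337, minus strand) the best place had 50.7 in the pooled list, 29.0 in replicate 1 and 22.6 in replicate 2. Its summit was 302 bp upstream of CG12868 and 1262 bp upstream of tra2, and its pooled IDR, 0.015, was just outside the threshold. At tra2's own start sites the highest pooled values were 28.9 and 28.1. Of all genes, 68.9% had a lower best value than tra2 and 43.8% a lower one than tra.

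dsx (FBgn0000504, 3R, 7924323 to 7967408, minus strand), the transcription factor at the end of the somatic branch, had 58 pooled places and none past the threshold. The best was in an intron 6512 bp downstream of a start site, with 49.9 in the pooled list, 24.3 in replicate 1 and 22.6 in replicate 2, at an IDR of 0.0316. Both replicates gave nearly equal values there, and 41.0% of genes with windows over 50 kb had a lower best value. The start site of 5 transcripts, at 7967408, had 8.6 in the pooled list, 9.8 in replicate 2 and no place in replicate 1. The other, at 7962786, had 25.2 in the pooled list, 10.9 in replicate 1 and 19.3 in replicate 2. A stretch of 11.4 kb inside the gene had no pooled summit.

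ix (FBgn0001276, 2R, 11359437 to 11360163, minus strand), a Mediator subunit that works with the female form of Dsx, had a thresholded place in its window, but not at the gene. It lay at 11357158 to 11357421, 2873 bp downstream of the ix start site, with 52.2 in the pooled list, 23.2 in replicate 1 and 28.9 in replicate 2, at an IDR of 0.00845. The nearest start site was that of a selenocysteine tRNA gene, tRNA:SeC-TCA-1-1, 360 bp away, which is why it counted as a promoter place; the nearest of a protein-coding gene was that of iotaTry, a trypsin gene, at 570 bp. The place was in neither the conservative set nor a set of 1 replicate, and the windows of 7 other genes share it. Of the 13 pooled places in the window, 1 was nearest to the ix start site, with a signal of 17.7 in the pooled list, and 9.1 in replicate 1 and 8.8 in replicate 2 at the places under it.

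her (FBgn0001185, 2L, 16677185 to 16679691, plus strand), a zinc finger gene that acts alongside dsx in female differentiation, had the lowest best value. It was 32.1 in the pooled list and 15.9 in replicate 1, in an intron of Trpgamma, with no overlapping place in replicate 2. The replicates differed over the whole window, with 15 places in replicate 1 and 3 in replicate 2. Yet replicate 2 had a place in its own thresholded set there, at 16684504 to 16684747, with 43.4 in replicate 2 (rank 813, IDR 0.00599) and 12 in replicate 1 (rank 48503). Its summit was in an intron, 618 bp upstream of CG31807 and 7441 bp downstream of the her start site. The pooled place that overlaps it had a signal of 35.5 and an IDR of 0.606, and its summit fell 18 bp outside the window, so it is not among the 15 pooled places counted for her. The best place of replicate 1 in the window, with 30.9 at 16684246 to 16684495, lay next to that of replicate 2 without overlapping it. The her start site had a pooled place of 25.6 centred 386 bp upstream, with 19.1 in replicate 1 and none within 500 bp in replicate 2. The start site of Trpgamma was closer to that place, at 98 bp, so no pooled place was nearest to the her start site.

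fru (FBgn0004652, 3R, 18414273 to 18545586, minus strand), the male courtship gene, is the longest of the 9 and had 167 pooled places, of which 139 were in introns. From 18411445 to 18423066, 11.6 kb that include the 3′ end of fru, the pooled list had no summit. The matching stretch was 11.0 kb in replicate 1 and 11.7 kb in replicate 2. The one thresholded place was at 18436654 to 18436917, with 60.8 in the pooled list (rank 1608, IDR 0.00823), 31.9 in replicate 1 and 23.6 in replicate 2. It was the best place of fru in replicate 1. In replicate 2 other places of fru were higher, the best with 25.0 in a coding exon at 18432658 to 18432901. The summit of the thresholded place lay 1985 bp downstream of the start site of fru-RM. It was in an intron whose 3′ end, at 18435791, is shared by the transcripts that span it. That intron runs for 2909 bp in fru-RM and for up to 79261 bp in transcripts from the distal start site. The place was not in the conservative set or in the set of either replicate alone, where its IDR was 0.0402 and 0.503. Of genes with windows over 50 kb, 53.6% had a lower best value, so the value was middling for a gene of this length.

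Among the 7 start sites of fru, the site of fru-RD had the second strongest place of the gene, centred 101 bp upstream. It had 44.6 in the pooled list, 19.8 in replicate 1 and 23.1 in replicate 2, but an IDR of 0.567. The distal site at 18545586, which serves 8 transcripts, had 25.0 in the pooled list and 15.2 in replicate 2, with no place in replicate 1. At the site of fru-RK the values were 32.0 in the pooled list, 17.2 in replicate 1 and 15.5 in replicate 2. The sites of fru-RI, fru-RM and of fru-RA with fru-RL had 22.8, 18.5 and 19.2 in the pooled list, and that of fru-RJ had a place within 500 bp in each replicate but no pooled one.

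**Figure D3:**
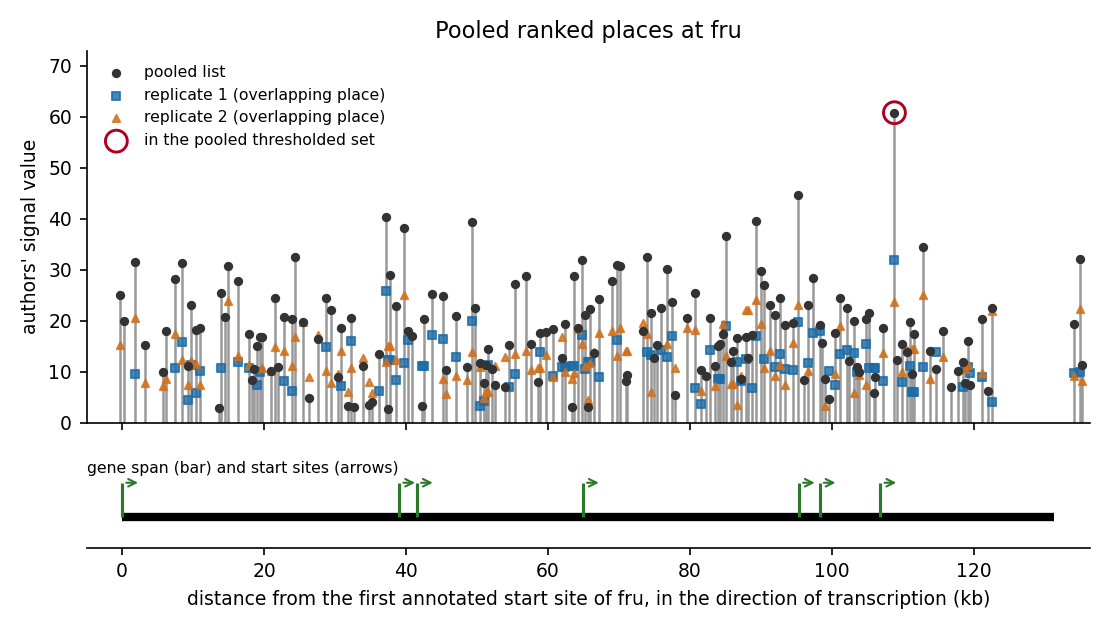
Signal value of each of the 167 pooled places at fru (circles on stems), and of the overlapping replicate places, against the distance in kb from the distal start site, with the 7 start sites drawn below. Places fill most of the gene at 44.6 or lower, apart from an empty stretch of 11.6 kb over its 3′ end. The 1 place with 60.8 is ringed as a member of the pooled thresholded set.

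retn (FBgn0004795, 2R, 23632610 to 23654820, plus strand) had 40 pooled places and none past the threshold. The best was in its 3′ untranslated region, with 46.1 in the pooled list, 19.5 in replicate 1 and 23.1 in replicate 2, at an IDR of 0.079. Replicate 1 had its best retn place elsewhere, 155 bp downstream of the start site of 4 transcripts, with 28.7 there and 35.9 in the pooled list, but no place within 500 bp in replicate 2. The best of replicate 2 was in a coding exon, with 28.4 in replicate 2, 39.9 in the pooled list and no place in replicate 1. The replicates thus gave different best places at retn, and the pooled one was the best of neither.

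dati (FBgn0262636, 4, 375640 to 395605, minus strand), the gene of the precipitated protein, had no thresholded place and no pooled place inside its span. Its 5 pooled places were all upstream, and the best had 52.4 in the pooled list (rank 2331, IDR 0.0228), 17.5 in replicate 1 and 36.8 in replicate 2. Its summit was 1908 bp upstream of the first start site, and the value in replicate 2 was 2.1 times that in replicate 1. Over all pooled places with a place in both replicates, the median of that ratio was 1.07, with 5% of places above 2.64. Replicate 1 had 12 places in the window, among them 1 in an intron of dati (26.3) and 1 centred 210 bp upstream of the first start site (24.1), while replicate 2 had 1 place in all. Chromosome 4 was thin as a whole: its 80 protein-coding genes had a median of 0 pooled places per 10 kb, 3.58 in replicate 1 and 0 in replicate 2, beside 1.67, 4.0 and 0.334 for dati. A density cannot fall below a median of 0, so only replicate 1 could have put dati below its chromosome, and there it had 4.0 against 3.58.

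Apart from Sxl and dati, the density of pooled ranked places was close to that over the arms, but below the median of all genes. The 9 windows together had 10.2 pooled places per 10 kb, against 11.5 over the arms. In replicate 1 they had 7.99, against 7.97, and in replicate 2 they had 7.69, against 9.01. The other 7 genes had 10.9 to 12.4 pooled places per 10 kb, below the median of 13.4 over the windows of all genes. The share of all genes with a lower density ran from 18.4% for tra to 34.8% for retn. In the replicates they varied more, from 7.28 (tra) to 12 (her) in replicate 1 and from 2.4 (her) to 11.2 (ix) in replicate 2.

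**Figure D4:**
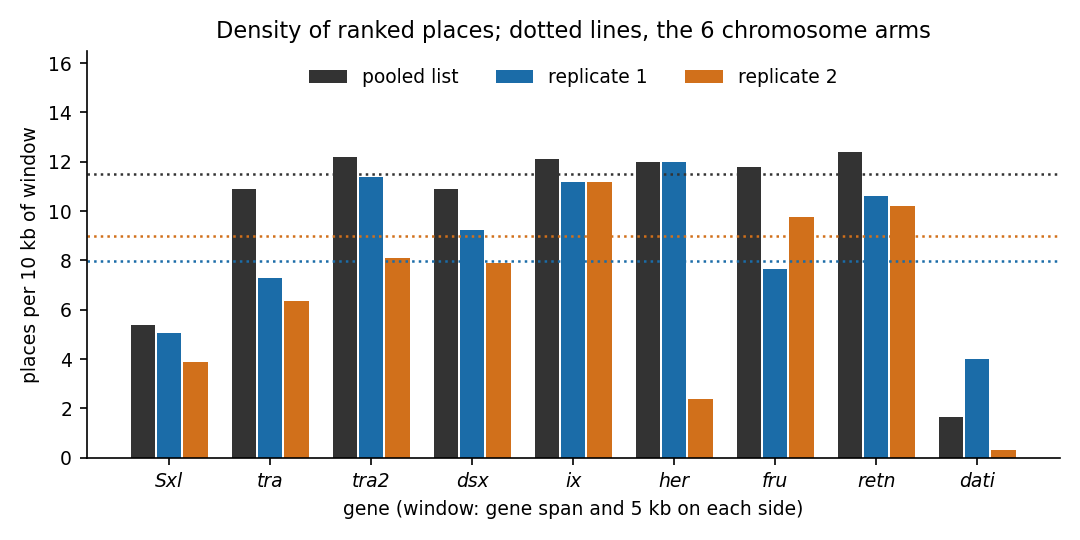
Ranked places per 10 kb of window for each gene in the pooled list and in each replicate (bars), with the level over the 6 arms for each list (dotted lines in the same colours). Sxl (5.37 pooled) and dati (1.67) are low in the pooled list, and her has 12 in replicate 1 but 2.4 in replicate 2.

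At start sites the genes were at the level of the genome in the pooled list. A pooled summit lay within 500 bp of 19 of their 23 start sites (82.6%, against 82.4% of 19607 sites), and the missing 4 were that of fru-RJ and the 3 of dati. In replicate 1 the number was 17 (73.9%, against 72.6%), in replicate 2 it was 13 (56.5%, against 70.0%), and in the pooled thresholded set it was 1 (4.35%, against 6.78%). Of the 343 pooled places, 58 (16.9%, exact 95% interval 13.1 to 21.3) were promoter places, against 14.9% over the arms. Introns held 208 (60.6%, 55.3 to 65.8), against 37.9%, coding exons 11.7%, against 18.7%, and intergenic sequence 5.83%, against 23.6%. The windows are built on genes, and fru alone gave 139 of the intron places.

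Both replicates had a place at the best pooled place of 7 of the 9 genes, the exceptions being tra and her. The search for like genes below took in 11818 of 13945 genes, those with a value in the pooled list and in both replicates. Beside that, 7 of 9 does not stand out as high. The shares that follow are for all places, not for best places. Of all 343 pooled places, 147 (42.9%) overlapped a place in both replicates, against 45.0% over the arms. Replicate 1 alone covered 21.0%, against 18.0%, replicate 2 alone 25.4%, against 26.6%, and neither 10.8%, against 10.4%. Where both had a place, the median ratio of replicate 2 to replicate 1 was 1.17, against 1.07.

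**Figure D5:**
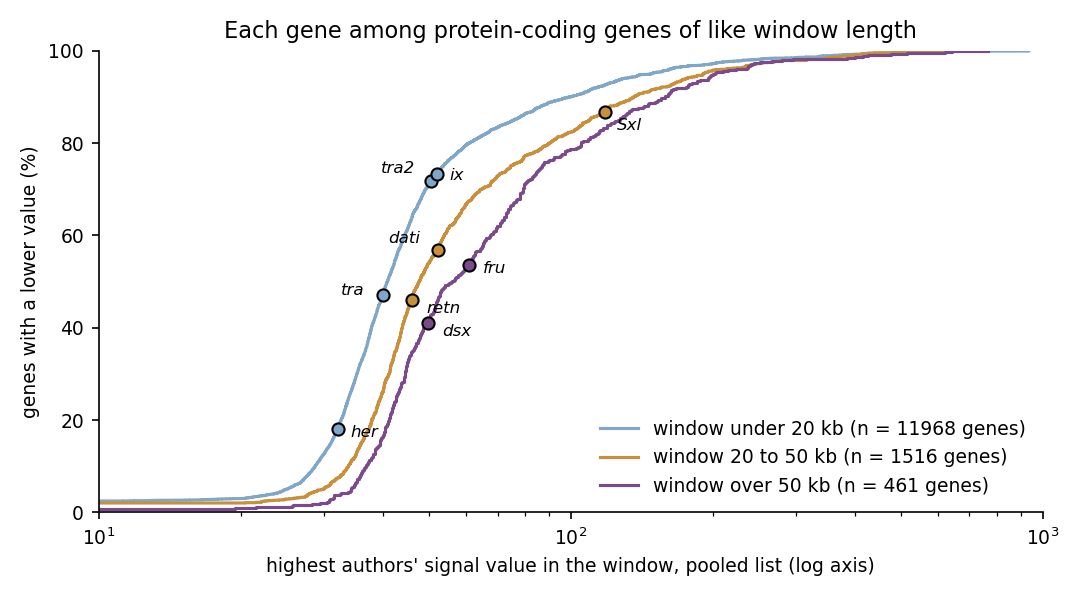
Percentage of protein-coding genes with a lower best pooled signal (vertical axis) against that signal (horizontal log axis), for 3 classes of window length, with the 9 genes as points on the curve of their class. Sxl is at 86.8% of its class, the other genes lie between 18.1% (her) and 73.4% (ix).

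Set among genes of their own window length in that plot of percentiles, the genes spread from low to high. Sxl was above 86.8% of its class in the pooled list, 87.1% in replicate 1 and 85.8% in replicate 2, so its place in the order was nearly the same in each list. That of her was 18.1% in the pooled list, 75.2% in replicate 1 and 88.3% in replicate 2. The replicates had their best places side by side at the window edge, at 16684246 to 16684495 and 16684504 to 16684747. The pooled place of 35.5 that overlaps the latter was not counted, because its summit fell 18 bp outside the window. Its value was itself below 41.3, the median best value of genes with windows under 20 kb. dsx was at 41.0%, 28.9% and 14.8% in the pooled list, replicate 1 and replicate 2.

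Other genes of the cascade were taken from 3 lists. Of 18 genes that act on Sxl, as activators or repressors of its transcription or in its splicing, or below it in dosage compensation, 8 (44.4%) had a thresholded place in the window, against 25.4% of all genes, and 3 had one within 1000 bp of their own start site, as did 9.52% of all genes. The highest were gro, a corepressor that acts with an autosomal repressor of Sxl (202.9 in the pooled list, 106.9 in replicate 1, 93.9 in replicate 2, 147 bp upstream of its start site), and Mettl14, an RNA methylation subunit (109.0, 56.5 and 58.6). The Mettl14 place was at the promoter of its neighbour CG7810. fl(2)d, a splicing cofactor of Sxl, had 70.1, 34.1 and 36.1, 113 bp upstream of its start site. sisA, an X-linked activator of Sxl, had 62.5 in the pooled list, 31.9 in replicate 1 and 18.3 in replicate 2. The summit of that place was 4222 bp upstream of the sisA start site in an intron near Gapvd1. Mettl3, the methyltransferase, had 60.5, 43.4 and 17.0. Ythdc1, a nuclear reader of RNA methylation, had 60.4, 40.8 and 20.7. The places of Mettl3 and Ythdc1 were at the promoters of Miro and Ids.

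Of 12 targets and partners of Dsx and Fru, 7 (58.3%) had a thresholded place, and 1 had it within 1000 bp of its own start site, against 9.52% of all genes. Their median window, 29.4 kb, was longer than the 12.2 kb of all genes, and 37.7% of genes with windows of 20 to 50 kb had such a place. The values in the pooled list were 114.4 for Lgr3, a relaxin-type receptor (at the promoter of Idh3g), 93.7 for bon, a chromatin cofactor, 76.8 for bab1, a regulator of abdominal pigmentation, 73.2 for HDAC1, a deacetylase, 62.0 for lola, a BTB zinc finger gene, and 58.2 for bab2. The bab1 place was in an intron 68301 bp from the bab1 start site (nearest CG9205, 1909 bp), and the bab2 place in an intron 25426 bp from its own. The HDAC1 place was 1885 bp upstream of HDAC1, in an intron with Src64B as the nearest start site (1283 bp), and the lola place was 1456 bp upstream of lola. The bon place lay in an intron of its own gene, 1847 bp downstream of the start site, with 49.0 in replicate 1 and 47.6 in replicate 2. In the same order, the replicate values were 60.0 and 52.1 for Lgr3, 35.0 and 42.3 for bab1, and 35.1 and 41.8 for HDAC1. They were 38.0 and 32.0 for lola, and 42.7 and 14.9 for bab2.

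Of 23 courtship and receptivity genes, 6 (26.1%) had a thresholded place a share at the level of all genes, and 2 had it within 1000 bp of their own start site, against 9.52% of all genes. The highest value, 528.3 in the window of Desat1, a desaturase gene of pheromone synthesis, was 124 bp upstream of CG18549 and 5131 bp from the start site of Desat1. The window of ple, which encodes tyrosine hydroxylase, had 83.0 between genes, 10343 bp from the ple start site and nearest to that of CG8519. In the window of nonA, a gene of the courtship song, a place of 78.1 was 61 bp upstream of PIG-Q and 2356 bp from nonA. That of ppk29, a pheromone-sensing channel, held 64.6 at 141 bp upstream of gammaSnap1 and 8093 bp from ppk29, and that of spin held 58.2 at 10682 bp from the spin start site, nearest to Got1. Or67d, the receptor for a male pheromone, had 54.6, and its place was 521 bp upstream of its own start site, with 30.5 in replicate 1 and 27.6 in replicate 2. In the same order, the replicate values were 322.8 and 209.2 for Desat1, 41.3 and 49.7 for ple, and 32.4 and 43.3 for nonA. They were 29.0 and 34.7 for ppk29, and 18.4 and 47.1 for spin.

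Genes with values most like those at Sxl, ix and fru were found by the distance over 3 log2 values (pooled list, replicate 1 and replicate 2) among 11818 genes. For Sxl these were CG4615, whose window shares the Sxl place, and metro and Syx6 (120.2 in the pooled list, 66.9 in replicate 1, 51.4 in replicate 2, distance 0.0343), which tie with CG7737 and CG9084. For fru they were Art8, Samuel and dUTPase, with 60.2, 33.4 and 23.4 at a distance of 0.0681; the best pooled value of Acp32CD is the same 60.2. For ix they were CG13202, CG30025 and CG12384, at equal distance among the 7 genes that share its place. Art8, Samuel and dUTPase had the same 3 values, as did metro, Syx6 and CG7737. Each of these groups may be a single place in overlapping windows, which was not tested.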

How the data were processed

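Peak lists of 2 biological replicates of Dati-eGFP ChIP-seq, precipitated from sonicated chromatin with a labelled size range of 200 to 800, were deposited on build dm6, per the labels. The deposited documentation names 1 control alignment file shared by both replicates; aligner and peak caller: not given in the sources used here. The signal of each place is the value the authors deposited. The deposited score rescales the IDR (negative log2, at most 1000), which 100% of scores matched within 1. The authors' ranked lists also hold the IDR as a −log10 value. The authors deposited the summit as another column, an offset in bp.

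From these, places were assigned to a gene by their summit, and ranks are by signal within a whole list. Genes came from Ensembl release 115 (without transposable elements) and sequence from the RefSeq Release 6 genome. A promoter place lay within 500 bp of any annotated start site; any other place was assigned, in this order, to the 5′ UTR, coding exon, 3′ UTR, remaining exons, intron or intergenic sequence. A replicate place counted with an overlap of at least 1 bp, and the one of highest signal was taken. Places, summits and coordinates are counted from 1. Most places in each list have 1 fixed width (264 bp in the pooled list, 250 and 244 bp in replicates 1 and 2), so width was not used. Read depth is unknown, and intervals cover counting error only.

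With 1 group there was no comparison between groups and no test, and values stand beside those of all genes. The members, the gene lists and the 6-mers were chosen with earlier results of these data known. Named genes were the 9 members, the nearest gene of each thresholded place in their windows, up to 6 genes per list by signal, and the 3 genes most like each member with a thresholded place. The courtship list had 25 names, which gave 23 genes, and no name was recorded as unmatched. The counting was tested on simulated places (Python 3.11.15, NumPy 2.4.6, pandas 2.3.3, SciPy 1.17.1).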

Additional observations from a re-analysis of the deposited data

How the results depend on the processing

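The number of these genes with a thresholded place was 3, and it was 1 in the conservative set and 1 among the 946 places of highest signal in the pooled set, while leaving out a replicate gave 1 to 2; Sxl was present in each of these. The number of thresholded places was 5, and it was 1 in the conservative set, 1 among those of highest signal, and 2 without either replicate. Within 1000 bp of a start site the count was 1, with 2 at 2000 bp, 0 in the conservative set and 0 without either replicate. The other windows (gene span alone, 1000 bp or 10000 bp), an overlap rule and added places of the same score left 2 or 3 genes.

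Over all genes, 25.4% had a place in the window, and the share was 23.0% in the conservative set, 6.52% in the gene span alone, 13.9% with 1000 bp, 37.0% with 10000 bp, 15.4% with those of highest signal and 14.0 to 18.1% without a replicate. Within 1000 bp of a start site it was 9.52%, with 7.59% at 500 bp, 12.4% at 2000 bp, 8.77% in the conservative set and 4.98 to 6.47% without a replicate.

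The 343 pooled places fell to 169 among the 77022 places of highest signal, and their density to 5.02 per 10 kb. Promoter places were 16.9%, with 8.16% at 250 bp, 27.7% at 1000 bp and 11.6 to 20.8% without a replicate. The best value moved in 4 of 8 genes in the gene span alone (tra to 36.2, tra2 to 28.1, ix to 17.7, her to 23.8), and that of her was 25.0 in the list that pairs the replicates and 23.8 by IDR. These subsets and the stricter sets hold fewer places by construction. The lists hold no read counts, so what depth limits could not be measured.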
